A study of Mus musculus with 4 samples.

Results

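Complement genes were followed in the cells of orthotopic pancreatic tumors. The 9 genes are C1qa, C1qb and C1qc, which encode the chains of C1q; C3, C4b and Cfb, which encode the central components; Serping1, which encodes the C1 inhibitor; and C3ar1 and C5ar1, which encode receptors for the complement fragments C3a and C5a. They were chosen by symbol from 32285 genes that all deposited libraries list, and all 9 had UMIs in every library. KPC cells, a pancreatic cancer line from a genetically engineered mouse model, were grafted into the pancreas of male mice made obese by 24 weeks of high-fat feeding, and tumors were taken after 25 days. Pdgfrb-TK mice, in which the Pdgfrb promoter drives a viral thymidine kinase that makes dividing cells sensitive to ganciclovir, received GCV at 50 mg/kg (Pdgfrb-TK/GCV) or PBS (Pdgfrb-TK/PBS). Wild-type C57BL/6 mice received D-CAN at 30 mg/kg (D-CAN) or PBS (WT/PBS); D-CAN is a peptide that homes to adipose stromal cells and joins a part that induces apoptosis. The labels give an age of 7 months and the methods 12 months. The methods pool 200000 cells per tumor into 600000 per group, which is 3 tumors. The groups held 3, 4, 3 and 3 mice in the order above, and the sample titles speak of a tumor from a mouse. Which tumors entered each library is therefore not known. Each condition is 1 library, and no difference between conditions could be tested.

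Complement is a cascade of serum and tissue proteins. C1q binds antibody or cell debris and starts the classical pathway through the proteases C1r and C1s, C4 and C2 then form the enzyme that cleaves C3, and factor B (Cfb) forms the C3-cleaving enzyme of the alternative pathway. The C1 inhibitor stops C1r and C1s, and the fragments C3a and C5a act on their receptors on myeloid cells. Macrophages are a known source of C1q in tissues, and fibroblasts of C3 and other components.

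Cells were placed in classes by 8 marker genes each, none of them a complement gene, Pdgfrb or Dcn, and the UMIs (unique molecular identifiers, each standing for 1 captured RNA molecule) of a class were summed in each library. Levels are given as CPM, the UMIs of a gene scaled to the UMI total of its class. Brackets hold exact 95% Poisson intervals for levels and exact conditional binomial intervals for ratios between libraries, and both cover counting error only. Values of the 4 libraries are listed with Pdgfrb-TK/GCV first, followed by Pdgfrb-TK/PBS, then D-CAN, then WT/PBS. The libraries held 10178 to 12280 cells with at least 200 genes and 84020317 to 155408336 UMIs, and 69.3% to 78.7% of cells fell into a class. Cells with over 20% mitochondrial UMIs made up 4.48%, 8.43%, 29.3% and 18.2%. Any pair of libraries shared 26 to 42 cell barcodes. CAF-like cells (cancer-associated fibroblasts) numbered 245, 453, 1175 and 1923, macrophage-like cells 1580, 360, 880 and 868, and mesothelial-like cells 53, 49, 50 and 21.

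Pdgfrb, the gene whose promoter drives the kinase, was at 58.7, 211, 227 and 138 CPM in the CAF-like cells. The mesothelial-like cells of WT/PBS went against their label: Upk3b, a mesothelial marker, was at 140, 219, 229 and 1.89 CPM in this class. Its tests of C3, C4b, Cfb and Serping1 are therefore given with and without WT/PBS. The 3 C1q genes led the macrophage-like class among all genes by fold over the other classes, although the gate did not use them. The CAF-like class was led by Apod, Ptx3 and Dpt.

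The 3 C1q genes lie within 18675 bases of chromosome 4 (mm10, chr4:136880129-136898803), all on the minus strand, with C1qb from 136880129 to 136886187, C1qc from 136889804 to 136893065 and C1qa from 136895917 to 136898803. C3 lies on chromosome 17 from 57203970 to 57228136, and C4b (34728380 to 34743882) and Cfb (34856374 to 34862518) lie on the same chromosome. Serping1 lies on chromosome 2 (84765387 to 84775444), C3ar1 on chromosome 6 (122847138 to 122856161) and C5ar1 on chromosome 7 (16246743 to 16259540), and these 6 genes are on the minus strand as well. Cfb shares its strand and part of its span with the read-through gene model Gm20547, and C4b has a near-identical neighbour, C4a, so the split of UMIs within each pair is uncertain. Of the 9 genes, 5 had a promoter in the RefSeq table (GRCm38.p6). The 250 bases before the RefSeq start are shown for C1qb and C1qc, which were high together in macrophage-like cells, and for C3, which differed most between libraries in CAF-like cells. They cover chr4:136886201-136886450, chr4:136892915-136893164, which overlaps the longer gene model of C1qc above, and chr17:57228137-57228386, and are written 5′ to 3′ on the gene's strand.
C1qb: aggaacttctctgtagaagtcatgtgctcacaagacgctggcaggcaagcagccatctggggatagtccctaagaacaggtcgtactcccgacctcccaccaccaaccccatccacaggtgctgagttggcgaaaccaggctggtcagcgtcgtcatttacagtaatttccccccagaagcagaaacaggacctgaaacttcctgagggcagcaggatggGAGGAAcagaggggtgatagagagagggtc
C1qc: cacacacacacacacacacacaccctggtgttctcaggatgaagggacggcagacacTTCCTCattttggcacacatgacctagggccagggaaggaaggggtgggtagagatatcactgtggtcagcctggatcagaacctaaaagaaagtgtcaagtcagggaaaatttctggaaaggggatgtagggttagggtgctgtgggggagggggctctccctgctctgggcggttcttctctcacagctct
C3: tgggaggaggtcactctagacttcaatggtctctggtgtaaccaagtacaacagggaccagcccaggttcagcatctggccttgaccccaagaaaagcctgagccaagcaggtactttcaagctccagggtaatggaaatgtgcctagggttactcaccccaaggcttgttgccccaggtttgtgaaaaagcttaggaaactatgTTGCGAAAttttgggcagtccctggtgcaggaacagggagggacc
Capitals mark matches, on either strand, to GAGGAA, a core bound by ETS factors such as PU.1 of myeloid cells, in C1qb and C1qc, and to TTGCNNAA, a C/EBP-type motif, in C3. GAGGAA occurred in 23.3% and TTGCNNAA in 9.56% of 32851 promoter windows of this length. Neither TTCNNNGAA, a STAT-type motif found in 7.02% of windows, nor the interferon-stimulated response element (ISRE), found in 2.98%, occurred in the windows of the 5 genes, and C3ar1 and C5ar1 held none of the 4 motifs. The motifs do not overlap in these windows, and a match is a string of letters and not a shown binding site.

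The classical pathway starter C1q was carried by macrophage-like cells. C1qa was at 2002 [1975 to 2028], 2601 [2511 to 2693], 2640 [2599 to 2682] and 1458 CPM [1430 to 1487] in these cells. C1qb was at 1864, 2372, 2558 and 1425 CPM there, and C1qc at 1106, 1489, 1536 and 918 CPM. The order of the libraries was the same for the 3 genes, with D-CAN and Pdgfrb-TK/PBS above Pdgfrb-TK/GCV and WT/PBS lowest. Macrophage-like cells held 79.8%, 69.5%, 88.9% and 83.1% of all C1qa UMIs of their library.

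In CAF-like cells C1qa was at 35.2 [28.5 to 43.0], 3.13 [1.35 to 6.16], 8.98 [7.27 to 11.0] and 14.2 CPM [12.6 to 15.9]. B-like cells, which should lack the gene, had 81.7 CPM [58.3 to 111] in Pdgfrb-TK/GCV and 24.5 CPM [10.6 to 48.2] in D-CAN, the former above the CAF-like level and the latter with an interval that overlaps it. The PBS libraries had 1 and 0 UMIs of C1qa in B-like cells, too few for a level. KPC tumor-like cells, which should lack C1qa as well, had 21.0, 8.43, 4.06 and 4.603 CPM, below the CAF-like cells in every library but Pdgfrb-TK/PBS. The part of free RNA in the CAF-like values was not tested. C1qa, C1qb and C1qc made up 38.4% to 40.3%, 36.7% to 38.0% and 22.2% to 24.1% of C1q UMIs in macrophage-like cells, and C1qa made up 38.8%, 39.5%, 40.4% and 36.7% of them in KPC tumor-like cells. In CAF-like cells C1qa made up 39.2%, 19.5%, 36.2% and 37.2%, of 245, 41, 265 and 807 C1q UMIs.

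Macrophage-like cells differed among themselves in C1q. Subclasses were drawn by markers for resident-type cells (Mrc1, Folr2, Lyve1 and others), Arg1-type cells (Arg1, Spp1, Hmox1 and others) and monocyte-type cells (Ly6c2, Ccr2, Chil3 and others). Summed over the 3 chains, C1q was at 7856, 9528, 9395 and 6302 CPM in resident-type cells. Arg1-type cells had 5664, 6342, 7356 and 3373 CPM. Monocyte-type cells had 2694, 1371, 1299 and 793 CPM, the lowest of the subclasses in every library. The subclasses are ranges of a marker score and not types. Among resident-type, Arg1-type and monocyte-type cells, 7 to 34, 23 to 189 and 9 to 135 cells per library lay near the cut. A further 147, 93, 250 and 80 macrophage-like cells had no subclass.

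Single cells showed the same order. After thinning each cell to 2000 UMIs, all 3 chains were detected together in 75.7%, 92.7%, 80.1% and 75.2% of resident-type cells. The shares were 62.5%, 70.0%, 72.1% and 49.0% for Arg1-type cells and 29.5%, 21.7%, 14.1% and 11.6% for monocyte-type cells. Among CAF-like cells the share was at most 0.453% in any library. Over all macrophage-like cells it was 54.2%, 69.0%, 62.5% and 53.3%.

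**Figure D1:**
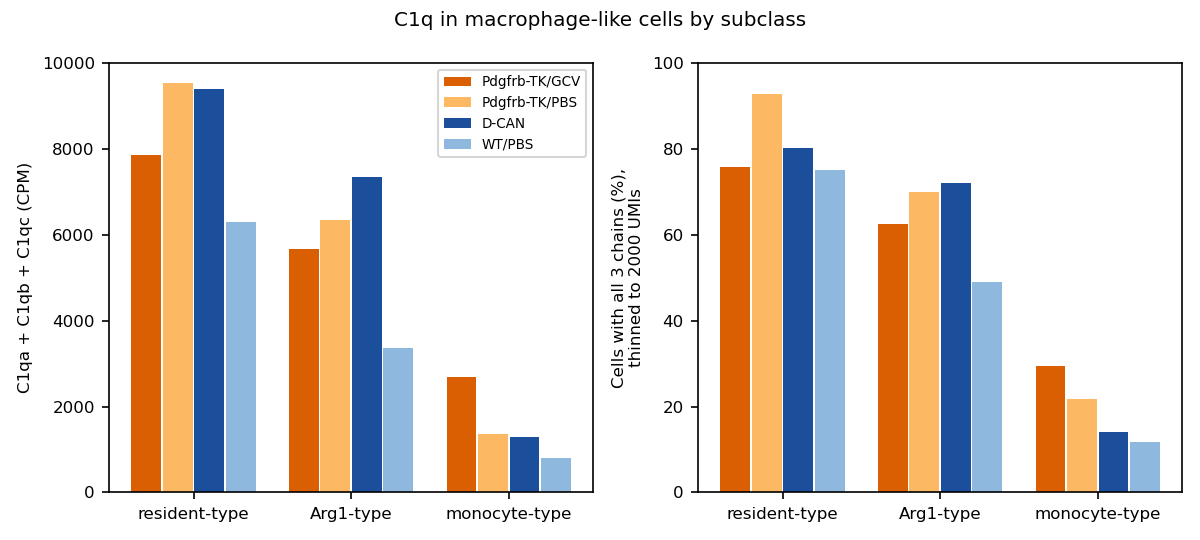
C1q in the 3 subclasses of macrophage-like cells: the left axis gives the summed CPM of C1qa, C1qb and C1qc, the right axis the percent of cells with all 3 chains after thinning to 2000 UMIs; each bar is 1 library, with no error bar. Monocyte-type bars are the lowest in each library, at 793 to 2694 CPM, and resident-type bars the highest, at 6302 to 9528 CPM.

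The components C3 and Cfb and the inhibitor Serping1 stood at higher levels in CAF-like than in macrophage-like cells of every library. C3, whose cleavage is the point where all pathways meet, was at 1008 [970 to 1046], 774 [740 to 808], 4799 [4758 to 4841] and 240 CPM [233 to 247] in CAF-like cells. In macrophage-like cells it was at 58.9, 29.6, 152 and 84.2 CPM. The stroma lay above the macrophages in every library, by the least in WT/PBS and by the most in D-CAN. Neutrophil-like cells had 138, 108, 241 and 234 CPM of C3. B-like cells had 14.3 CPM in Pdgfrb-TK/GCV and 61.1 CPM in D-CAN, on 7 and 20 UMIs. Each PBS library had 1 UMI of C3 in B-like cells, too few for a level. CAF-like cells held 32.1%, 40.5%, 74.1% and 60.7% of C3 UMIs, and KPC tumor-like cells, at a low level but in large numbers, 33.5%, 38.3%, 13.04% and 21.8%.

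C3 was uneven among CAF-like cells: the 10% of cells with most C3 held 38.9%, 53.6%, 48.5% and 82.3% of its UMIs. Cells were ranked by UMIs not scaled to depth, and Serping1 ranked in this way gave 47.7%, 44.4%, 38.8% and 45.7%. C3 was thus less concentrated than Serping1 in Pdgfrb-TK/GCV and more in the other libraries, by the most in WT/PBS. At 2000 UMIs per cell, C3 was detected in 64.7%, 52.2%, 75.5% and 18.3% of CAF-like cells, against 84.5%, 61.6%, 76.8% and 30.4% without thinning. In T/NK-like cells of D-CAN, which should lack C3, it was detected in 6.17% [4.17 to 8.74, Clopper-Pearson] thinned and 14.0% unthinned, with median depths of 3735 UMIs for T/NK-like and 6614 UMIs for CAF-like cells. The 75.5% of CAF-like cells in D-CAN lay above that background. C3 and Cfb were found in the same CAF-like cell in 25.3%, 17.7%, 31.7% and 5.92% of cells.

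Serping1 separated the stroma from the other classes most clearly. It was at 741 [709 to 774], 622 [592 to 653], 1824 [1798 to 1849] and 700 CPM [689 to 711] in CAF-like cells, and at 1.30, 3.28, 8.27 and 6.17 CPM in macrophage-like cells. Pericyte-like cells, gated by markers of the mural cells of small vessels, had 928, 1219 and 495 CPM in the last 3 libraries. The 5 such cells of Pdgfrb-TK/GCV were left out. CAF-like and pericyte-like cells had no fixed order, with pericyte-like cells higher in Pdgfrb-TK/PBS and lower in the last 2 libraries. Mesothelial-like cells were below CAF-like cells in all 4 libraries. Endothelial-like cells followed with 7.56, 8.10, 107 and 22.5 CPM, of which D-CAN was the highest.

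Cfb was at 171, 175, 343 and 86.7 CPM in CAF-like cells and at 26.8, 35.3, 63.9 and 30.7 CPM in macrophage-like cells. Its level in KPC tumor-like cells was 38.4, 59.2, 53.1 and 33.4 CPM, and since these cells are many they held 74.5%, 84.0%, 50.5% and 61.2% of all Cfb UMIs. C4b was at 84.1, 96.2, 440 and 63.8 CPM in CAF-like cells and at 68.5, 91.1, 38.6 and 43.8 CPM in macrophage-like cells, so both classes carried it, and the difference between them was largest in D-CAN. C4a had 0 to 6 UMIs in CAF-like cells. Among the macrophage subclasses C4b was highest in resident-type cells, with 219, 287, 140 and 152 CPM, against 60.3, 54.3, 17.4 and 24.9 CPM in Arg1-type cells.

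The receptors were on the myeloid side. C3ar1 was at 156 [148 to 163], 209 [184 to 236], 167 [156 to 177] and 156 CPM [147 to 166] in macrophage-like cells and between 0.935 and 2.74 CPM in CAF-like cells. It varied least of the 9 genes between the libraries of its main class. C5ar1 was at 190, 181, 197 and 119 CPM in macrophage-like cells and higher, at 511 [444 to 585], 407 [343 to 480], 433 [400 to 468] and 198 CPM [171 to 229], in neutrophil-like cells. In CAF-like cells C5ar1 was at 0.842 to 4.41 CPM. C5ar1 was higher in neutrophil-like than in macrophage-like cells of the same library in 4 of 4 libraries.

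**Figure D2:**
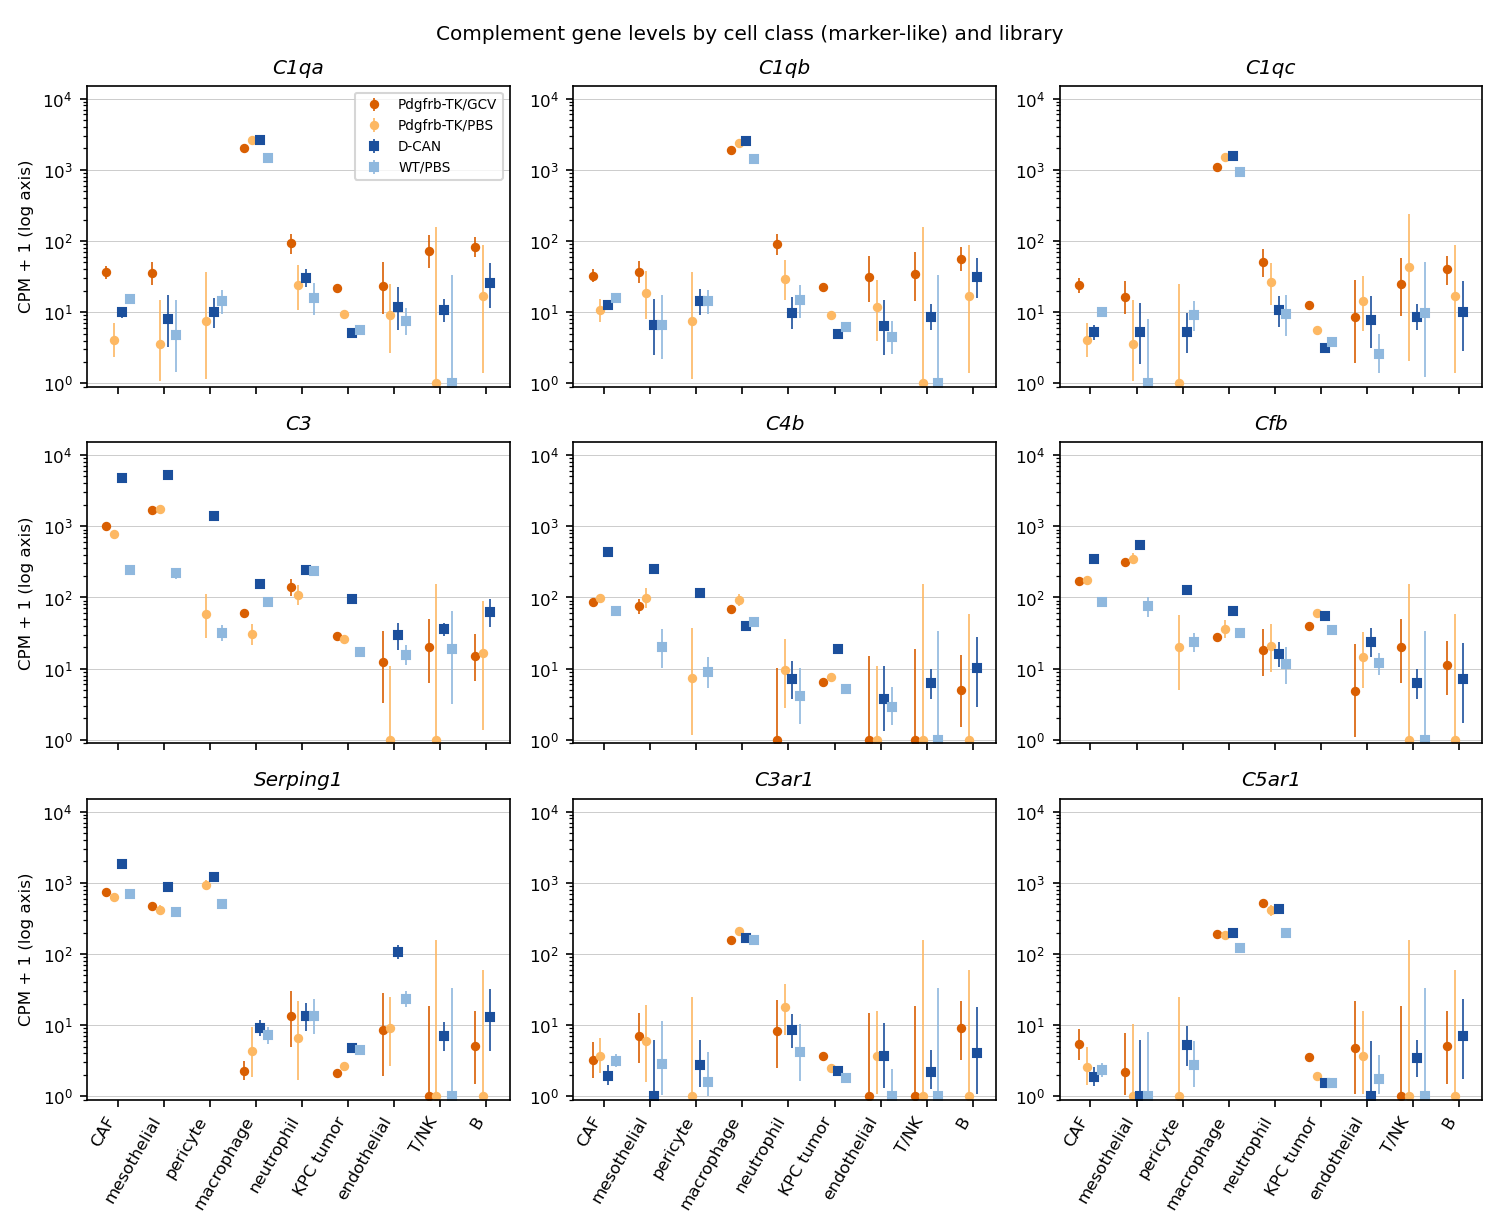
Levels of the 9 genes in 9 cell classes: the axis is CPM + 1 on a log scale, each point is 1 library and each bar its 95% counting interval; sums under 10 cells are left out. The C1q genes and C3ar1 stand out in macrophage-like cells, Serping1 in CAF-like, mesothelial-like and pericyte-like cells, and C5ar1 in neutrophil-like and macrophage-like cells.

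The 2 main classes were compared across the libraries, with the library as a block, by the quasi-likelihood test of edgeR with Benjamini-Hochberg adjustment over all 13136 genes tested. Of these genes 51.5% passed, so the share of members that passed says little by itself, and the sizes matter more. In CAF-like against macrophage-like cells Serping1 was higher by 7.75 on the log2 scale (SE 0.434, adjusted p = 1.46e-05), C3 by 3.83 (SE 0.631, adjusted p = 0.00193) and Cfb by 2.18 (SE 0.234, adjusted p = 0.000234). C1qa differed by -7.44 (adjusted p = 9.69e-05), C1qb by -7.06 (adjusted p = 1.88e-05) and C1qc by -7.31 (adjusted p = 7.89e-05). C3ar1 differed by -6.56 (adjusted p = 8.40e-06) and C5ar1 by -6.67 (adjusted p = 1.47e-05). C4b did not pass, at 0.97 (SE 0.587, adjusted p = 0.209): it was higher in CAF-like cells in all 4 libraries, by the most in D-CAN.

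Mesothelial cells line the peritoneum, but the mesothelial-like class is a marker gate that also carried CAF-like markers. The 8 CAF-like markers summed to 8178, 9449, 10890 and 9818 CPM in it, and the 8 mesothelial markers to 773, 1490, 1658 and 409 CPM. Whether these cells are mesothelial cells or fibroblasts with mesothelial markers was not tested. Stromal complement genes were found in this class as well. C3 was at 1704, 1721, 5168 and 218 CPM there, Cfb at 317, 350, 537 and 73.8 CPM, and Serping1 at 475, 413, 875 and 388 CPM. Against CAF-like cells 4.21% of 10297 genes passed the same test, and 6 of the 9 genes were tested. Serping1 was lower in mesothelial-like cells by -0.80 on the log2 scale (SE 0.149, adjusted p = 0.0207). That call was lost without Pdgfrb-TK/GCV (adjusted p = 0.0625), Pdgfrb-TK/PBS (adjusted p = 0.0856) or WT/PBS (adjusted p = 0.0558). C3 differed by 0.46 (adjusted p = 0.326), and by 0.66 without WT/PBS (adjusted p = 0.177). C4b differed by -0.61 (adjusted p = 0.270), and by -0.36 without WT/PBS (adjusted p = 0.461). Cfb differed by 0.59 (adjusted p = 0.186), and by 0.84 (adjusted p = 0.0390) without WT/PBS, where the label of the class was in doubt. C1qa and C1qb differed by -0.49 (adjusted p = 0.539) and -0.23 (adjusted p = 0.814).

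D-CAN was compared with WT/PBS to see which complement genes differ in the stroma left after the peptide. A gene is counted as past 2-fold only with at least 100 UMIs in both libraries together and a log2 ratio of CPM, with 1 CPM added, beyond 1. In CAF-like cells 4 of 7 members with enough UMIs were past 2-fold, all higher in D-CAN, while 18.9% of 11754 genes were past 2-fold in either direction. C3 was 20.02-fold higher [19.5 to 20.6], C4b 6.90-fold [6.49 to 7.33], Cfb 3.96-fold [3.74 to 4.19] and Serping1 2.61-fold [2.55 to 2.66]. C1qa, C1qb and C1qc had ratios of 0.634, 0.772 and 0.471. The median log2 ratio was 1.38 over these 7 members and 0.11 over all genes. With cells over 20% mitochondrial UMIs left out, the log2 ratio of C3 was 4.38, against 4.32 with them.

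The PBS libraries also differed from each other. In CAF-like cells C3 was 3.23-fold [3.061 to 3.399] and Cfb 2.02-fold [1.82 to 2.24] higher in Pdgfrb-TK/PBS than in WT/PBS, C4b had a ratio of 1.51 and Serping1 of 0.889, and 17.1% of 10894 genes were past 2-fold. With Pdgfrb-TK/PBS in place of WT/PBS as the control, D-CAN was higher by 2.63 for C3, 2.18 for C4b, 1.55 for Serping1 and 0.97 for Cfb on the log2 scale, so Cfb was no longer past 2-fold, and all 3 C1q chains changed sign, C1qa from -0.60 to 1.27, C1qb from -0.35 to 0.23 and C1qc from -0.93 to 0.34. The C3 value of D-CAN therefore lay above all 3 other libraries, while the size of the ratio depended on the control. The cells differed as well: inflammatory-type cells (Clec3b, Dpt, Il6 and others) numbered 32, 47, 468 and 122 of the CAF-like cells, and myofibroblastic-type cells (Acta2, Tagln, Postn and others) 102, 180, 312 and 1418. Between 1 and 25 of the former and 0 and 40 of the latter lay near the cut. The remaining 111, 226, 395 and 383 CAF-like cells had no subclass.

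Within these subclasses the differences in C3, C4b, Cfb and Serping1 were smaller. C3 was at 1883, 3174, 8538 and 1597 CPM in inflammatory-type cells, 5.35-fold higher [5.13 to 5.57] in D-CAN than in WT/PBS. In myofibroblastic-type cells C3 was at 584, 263, 1336 and 140 CPM, 9.55-fold higher [9.12 to 10.0]. C3 was thus higher in D-CAN than in the other libraries within both subclasses. For C4b the ratio was 1.53 in inflammatory-type and 4.35 in myofibroblastic-type cells, for Cfb 1.31 and 3.33, and for Serping1 1.37 and 1.99. The background differed between the subclasses. In inflammatory-type cells the median log2 ratio was 0.54 over 4 members and 0.41 over all genes, with 26.0% of genes past 2-fold higher. In myofibroblastic-type cells it was 0.99 over 7 members and 0.11 over all genes, with 9.66% of genes past 2-fold higher. There C1qb and C1qc were past 2-fold lower in D-CAN, as were 7.45% of all genes. For C3, C4b, Cfb and Serping1 the ratio was higher in myofibroblastic-type than in inflammatory-type cells, a difference that could not be tested.

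**Figure D3:**
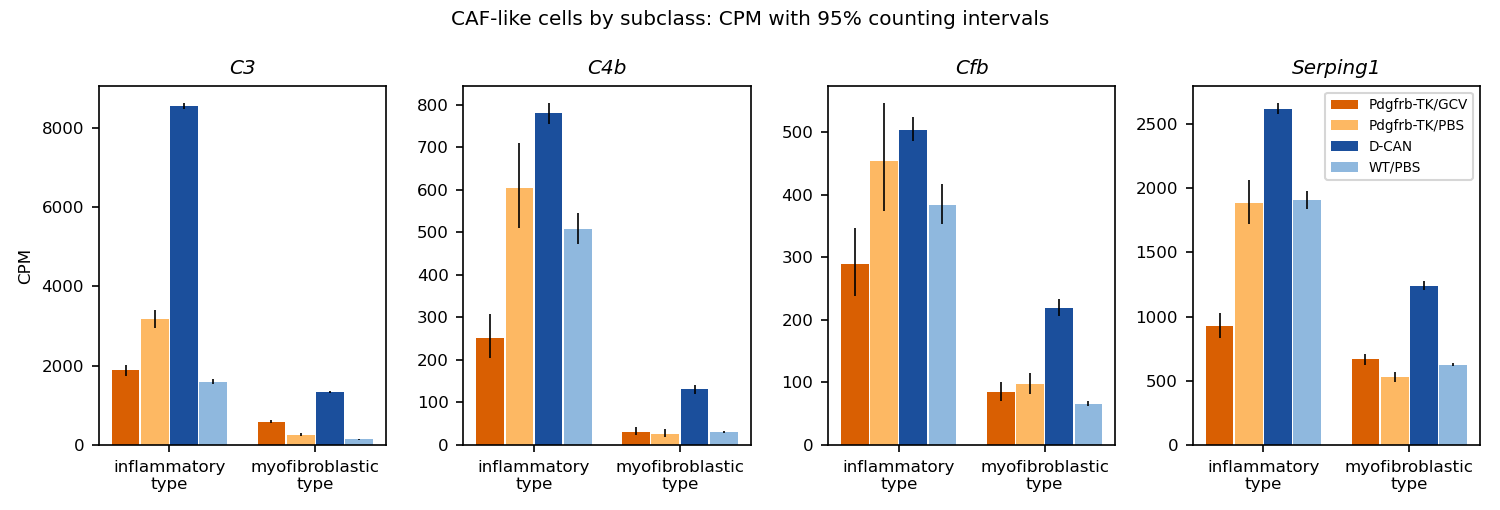
C3, C4b, Cfb and Serping1 in 2 subclasses of CAF-like cells: the axes give CPM, each bar is 1 library and each line its 95% counting interval. All 4 genes are higher in inflammatory-type than in myofibroblastic-type cells of the same library, and C3 reaches 8538 CPM in inflammatory-type cells of D-CAN.

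Some members were also higher in other classes of D-CAN. In mesothelial-like and pericyte-like cells all 4 members with enough UMIs were past 2-fold higher, where 16.75% and 7.58% of all genes were. In endothelial-like cells the 1 member with enough UMIs was, with 7.45% of all genes. In KPC tumor-like cells 2 of 9 members were, with 8.875% of all genes. In pericyte-like cells D-CAN and WT/PBS had 2314 and 54 UMIs of C3, 193 and 14 of C4b and 210 and 40 of Cfb. In mesothelial-like cells they had 179 and 10 UMIs of C4b and 383 and 39 of Cfb. These members had enough UMIs mainly through D-CAN, so their part of the count says little by itself. Serping1 had 864 and 205 UMIs in pericyte-like and mesothelial-like cells of WT/PBS, and C3 had 115 in the mesothelial-like cells. The median log2 ratio in the tumor-like cells was 0.08 over the 9 members and 0.16 over all genes. C3 was 23.7-fold higher in mesothelial-like cells, where the WT/PBS cells are in doubt, 44.8-fold [34.2 to 59.8] in pericyte-like cells and 5.86-fold [5.57 to 6.16] in KPC tumor-like cells of D-CAN. In the tumor-like cells C3 reached 94.6 CPM in D-CAN, while cells of the same library that are not known as its source had 34.8 CPM (T/NK-like), 61.1 CPM (B-like) and 98.2 CPM [65.7 to 141] (acinar-like). The tumor-like level was thus no higher than that of acinar-like cells. C4b was 4.20-fold higher in KPC tumor-like cells, with 17.8 against 4.25 CPM. Serping1 was 2.46-fold [2.27 to 2.67] higher in pericyte-like and 4.75-fold [3.34 to 6.78] higher in endothelial-like cells. How much of the tumor-like difference came from free stromal RNA was not tested.

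In macrophage-like cells 1 of 8 members was past 2-fold between D-CAN and WT/PBS, with 15.1% of 8537 genes past it. Cfb was 2.08-fold higher [1.75 to 2.48], and fell short of 2-fold with TMM factors, at 0.80 on the log2 scale, and with Pdgfrb-TK/PBS as the control, at 0.84. C1qa, C1qb and C1qc were 1.81-fold, 1.80-fold and 1.67-fold higher, C3 1.80-fold and C5ar1 1.66-fold [1.52 to 1.82], while C3ar1 had a ratio of 1.07 and C4b of 0.881. The median log2 ratio of the 8 members was 0.79. The summed CPM of the 8 CAF-like markers in macrophage-like cells was 43.5, 80.5, 143 and 214, and its part in the C3 and Cfb values was not tested. For C1q the control decided the value: Pdgfrb-TK/PBS was 1.78-fold, 1.66-fold and 1.62-fold above WT/PBS for the 3 chains, with 16.6% of 7042 genes past 2-fold between the PBS libraries. Set against Pdgfrb-TK/PBS, D-CAN differed by 0.02, 0.11 and 0.04 on the log2 scale. With that control C3, at 2.32, and C4b, at -1.22, were past 2-fold. Normalization mattered too, as the median log2 ratio of all genes in D-CAN against WT/PBS was 0.19 in macrophage-like and 0.11 in CAF-like cells, and -0.04 and 0.00 with TMM factors. The share of genes higher and lower was 11.1% and 4.07% in macrophage-like cells, and 7.18% and 6.60% with TMM factors.

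By subclass, the C1q difference was largest in Arg1-type cells, where C1qa was 2.32-fold [2.25 to 2.40], C1qb 2.12-fold and C1qc 2.06-fold higher in D-CAN than in WT/PBS. Pdgfrb-TK/PBS was 2.02-fold above WT/PBS for C1qa in these cells. In resident-type cells the ratios were 1.40, 1.68 and 1.39. C3 in monocyte-type cells was at 101, 22.8, 257 and 50.8 CPM, 5.05-fold higher [3.05 to 8.99] in D-CAN than in WT/PBS. These levels rest on 387, 56, 137 and 44 cells. C3 had enough UMIs mainly through D-CAN there, so its place past 2-fold says little by itself. C5ar1 in neutrophil-like cells was 2.19-fold higher [1.86 to 2.59] in D-CAN, and 2.06-fold higher in Pdgfrb-TK/PBS, than in WT/PBS. Past 2-fold higher in D-CAN than in WT/PBS were 8.87% of all genes in Arg1-type, 15.25% in monocyte-type and 14.3% in neutrophil-like cells.

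Pdgfrb-TK/GCV was compared with Pdgfrb-TK/PBS to see which complement genes differ once Pdgfrb-expressing cells are depleted. In CAF-like cells C3 had a ratio of 1.30 [1.23 to 1.38], C4b of 0.874 [0.727 to 1.05], Cfb of 0.975 [0.854 to 1.11] and Serping1 of 1.19 [1.12 to 1.27], none past 2-fold. With WT/PBS as the control they were, in that order, at 2.07, 0.39, 0.97 and 0.08 on the log2 scale, so C3 was past 2-fold. With Pdgfrb-TK/PBS as the control the members past 2-fold were 2 of 6, C1qa at 11.3-fold [5.50 to 26.9] and C1qb at 3.23-fold [2.05 to 5.27], against 5.39% of 6748 genes. They rest on 96 and 8 UMIs of C1qa and 86 and 25 of C1qb. Both had enough UMIs mainly through Pdgfrb-TK/GCV, so the count says little by itself. With WT/PBS as the control C1qa was at 1.26 and C1qb at 1.02 on the log2 scale, against 3.13 and 1.60. C1qa and C1qc were past 2-fold lower in CAF-like cells of Pdgfrb-TK/PBS than of WT/PBS. Between Pdgfrb-TK/GCV and Pdgfrb-TK/PBS, B-like cells had a C1qa level to compare in Pdgfrb-TK/GCV alone, where it was above the CAF-like level. The median log2 ratio was 0.32 over the 6 members and -0.09 over all genes (0.06 with TMM factors), and 2.09% of genes were higher and 3.31% lower (2.88% and 2.36% with TMM factors). C1qa was also 2.49-fold, C1qb 2.59-fold and C1qc 2.53-fold higher in KPC tumor-like cells of Pdgfrb-TK/GCV, which had 1580 macrophage-like cells against 360. The summed CPM of the 8 macrophage markers in CAF-like cells was 211, 81.3, 94.4 and 137, with 2 of the 8 at 0 in Pdgfrb-TK/PBS and none at 0 in the other libraries. The part of these in the C1q values was not tested.

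The subclasses went different ways. In inflammatory-type cells C4b was at 252 CPM in Pdgfrb-TK/GCV and 604 CPM in Pdgfrb-TK/PBS (ratio 0.418 [0.321 to 0.543]), Serping1 at 925 and 1885 CPM (ratio 0.491 [0.426 to 0.564]) and C3 at 1883 and 3174 CPM (ratio 0.593). These rest on 32 and 47 cells. In myofibroblastic-type cells C3 was 2.22-fold higher [1.96 to 2.53] in Pdgfrb-TK/GCV, Serping1 had a ratio of 1.26 and Cfb of 0.871. Of all genes 7.91% were past 2-fold lower in inflammatory-type cells, and 3.17% were past 2-fold higher in myofibroblastic-type cells. Whether the subclasses differ beyond the spread between mice cannot be told from 1 library per condition.

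In macrophage-like cells none of the 8 members with enough UMIs was past 2-fold between Pdgfrb-TK/GCV and Pdgfrb-TK/PBS, while 5.77% of 8685 genes were. C1qa, C1qb and C1qc had ratios of 0.770, 0.786 and 0.743, C3ar1 of 0.746 [0.654 to 0.855] and C4b of 0.751. C3 was 1.99-fold higher [1.43 to 2.87], with 36 UMIs in Pdgfrb-TK/PBS, and C5ar1 had a ratio of 1.05 [0.917 to 1.22]. With WT/PBS as the control C3 turned to -0.51 on the log2 scale, and C1qa, C1qb, C1qc and C4b turned to 0.46, 0.39, 0.27 and 0.63. Over all macrophage-like cells the median log2 ratio was -0.38 over the 8 members and -0.04 over all genes. In monocyte-type cells 4 of 7 members were past 2-fold higher in Pdgfrb-TK/GCV, where 8.88% of all genes were. They were C1qa at 2.03-fold, C1qb at 2.13-fold, C3 and C4b. Without thinning, C3 was detected in 5.36% and C4b in 3.57% of the 56 Pdgfrb-TK/PBS cells, against 36.2% and 23.5% in Pdgfrb-TK/GCV. C3 and C4b thus had enough UMIs mainly through Pdgfrb-TK/GCV, and their part of the count says little by itself. Monocyte-type cells were 387 of 1580 macrophage-like cells in Pdgfrb-TK/GCV and 56 of 360 in Pdgfrb-TK/PBS. Resident-type cells, the subclass with most C4b, were 76 in each, and Arg1-type cells 970 and 135. No member was past 2-fold in resident-type or Arg1-type cells, with median log2 ratios of -0.26 over 6 members and -0.15 over 8. The part of this mix in the ratios over all macrophage-like cells was not tested.

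**Figure D4:**
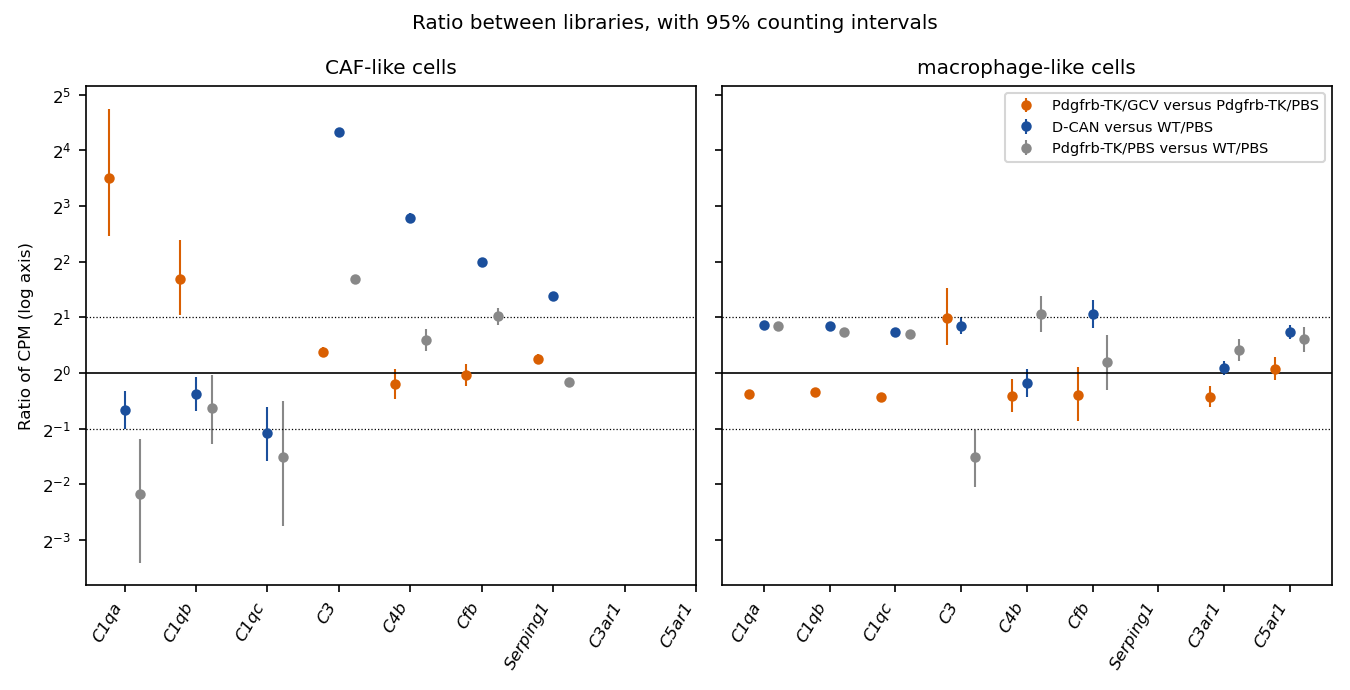
Ratios of CPM between libraries in CAF-like cells (left) and macrophage-like cells (right), on a log axis, with 95% counting intervals; dotted lines mark 2-fold, and genes with under 100 UMIs in a pair have no point. D-CAN against WT/PBS has C3, C4b, Cfb and Serping1 above 2-fold in CAF-like cells, and the PBS libraries differ by 3.23-fold for C3.

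Other genes of the system, 46 in a fixed list, were divided between the same classes. In CAF-like against macrophage-like cells 25 were tested, 14 were higher, 8 lower and 3 did not pass, where 51.5% of all genes passed. Among starters of the classical and lectin pathways, the protease genes C1s1 and C1ra were higher by 6.94 (edgeR, adjusted p = 1.05e-05) and 3.38 (adjusted p = 0.000644) on the log2 scale, C2 by 5.34, Colec12 by 5.68 and Masp1 by 4.26, and Fcna was lower at -5.74. Cfp, which encodes properdin, a stabilizer of the alternative pathway, was lower at -5.70. The terminal components went apart, with C7 higher by 8.31 and C6 at -3.60. Of the fluid-phase inhibitors, Clu was higher by 1.58 and Cfi by 1.20. Of the membrane inhibitors Cd55 was higher by 4.05, Cd59a by 2.73, Cd59b by 3.24 and Csmd1 by 7.57. Among receptors 5 of 7 were lower, Cd93 at -4.72, C5ar2 at -5.81, Itgam at -6.37, Itgax at -6.15 and Itgb2 at -5.87, and Lrp1 was higher by 1.22. Cd46, Cr1l and Calr did not pass. In mesothelial-like against CAF-like cells 1 of 12 passed, Lrp1 at -0.63 (adjusted p = 0.0476), where 4.21% of all genes passed. The Lrp1 call lay near the threshold of 0.05. It is given only with WT/PBS included, where the label of the class was in doubt.

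In CAF-like cells 9 of 21 of these genes were past 2-fold higher in D-CAN than in WT/PBS and 2 lower, where 11.6% of all genes were higher and 7.30% lower. C1s1 was at 457 against 130 CPM, C1ra at 240 against 60.7 CPM and C2 at 150 against 53.7 CPM, so the proteases of the classical pathway and C3 were high in the same library. C7 was 11.0-fold, Vtn 11.2-fold, Cd55 3.87-fold, Cd59b 4.04-fold, Cd46 2.26-fold and Csmd1 2.24-fold higher. The lower genes were Cd93, with a ratio of 0.336, and Cfd, with 118 UMIs in WT/PBS and 0 in D-CAN. Cd93 was also past 2-fold lower in CAF-like cells of Pdgfrb-TK/PBS than of WT/PBS. In KPC tumor-like cells Cfd was past 2-fold lower in both D-CAN and Pdgfrb-TK/PBS than in WT/PBS. The part of free RNA in the Cd93 and Cfd values was not tested. C7 and Cd55 were also 8.67-fold and 2.36-fold higher in Pdgfrb-TK/PBS than in WT/PBS, and Cfd had 0 UMIs in Pdgfrb-TK/PBS too. Between the PBS libraries 4 of 19 were past 2-fold higher and 4 lower, where 8.84% of all genes were higher and 8.25% lower. By subclass, D-CAN against WT/PBS had 5 of 14 of these genes past 2-fold higher in inflammatory-type cells, where 26.0% of all genes were. In myofibroblastic-type cells 3 of 16 were, with 9.66% of all genes. C1s1 was past 2-fold higher in both subclasses, and C1ra, C2, Cd55, Cd46 and Csmd1 in neither. The part of the subclass mix in the ratios over all CAF-like cells was not tested.

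After GCV, 2 of 13 of these genes were past 2-fold higher in CAF-like cells and 1 lower, where 2.09% of all genes were higher and 3.31% lower. They were Csmd1 at 7.67-fold [4.20 to 15.4] and Cd55 at 2.52-fold [1.85 to 3.48], and C7, lower at 6.97 against 42.2 CPM. The control itself differed for these genes. In CAF-like cells of Pdgfrb-TK/PBS, Csmd1 was past 2-fold lower, and C7 and Cd55 past 2-fold higher, than in WT/PBS. In macrophage-like cells 1 of 15 was past 2-fold, a share near the 5.77% of all genes: Vsig4, a receptor for C3 fragments on resident macrophages, at 20.5 against 75.5 CPM. Vsig4 was past 2-fold lower in Arg1-type cells as well, and the part of the subclass mix in its ratio was not tested. Between D-CAN and WT/PBS in macrophage-like cells 4 of 13 were higher and 1 lower, where 11.1% of all genes were higher and 4.07% lower. The higher genes were Cfp at 2.21-fold, C6 at 3.09-fold, Itgam at 2.55-fold and Itgax at 2.601-fold, and Fcna was lower, at 17.6 against 79.8 CPM. The 8 dendritic markers summed to 112 CPM in macrophage-like cells of D-CAN and 51.7 CPM in those of WT/PBS. Their part in the Itgax value was not tested. Itgam was 4.29-fold and Vsig4 10.7-fold higher in Pdgfrb-TK/PBS than in WT/PBS.

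The genes most like each member were found over 33 class sums by the correlation of log2(CPM + 1); the sums of a library share its depth, and the values are descriptions. C1qa was most like Lilra5 (r = 0.925) and the macrophage marker Ms4a7 (0.907), C1qb like Apoe (0.919) and F7 (0.912), and C1qc like Msr1 (0.917) and Ms4a7 (0.899). Serping1 was most like the matrix genes Fbn1 (0.972) and Aebp1 (0.965). C3 was most like Aox3 (0.847) and Gm38407 (0.835), C4b like Htra3 (0.906) and Neurl1a (0.836), and Cfb like Pkdcc (0.868) and Nfix (0.867). C3ar1 was most like Msr1 (0.906) and the macrophage marker Csf1r (0.905), and C5ar1 like the myeloid lectin genes Clec5a (0.965) and Clec4n (0.958). Among the members themselves the C1q genes stood closest, with r = 0.965 between C1qa and C1qb.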

How the data were processed

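Single-cell RNA-seq (10x, 3′) was analysed from 4 libraries, 1 per condition. The authors deposited counts, as UMIs per gene and cell without normalization. The file headers name Cell Ranger 7.0.0, the submitters' processing notes name Cell Ranger and STAR 2.6, and the methods name an older Cell Ranger with mm10. The protocol text of the labels describes other material, and groups were taken from sample titles. The files of D-CAN and WT/PBS list 5 reporter features more than the others, so the reference differed between hosts; these were left out.

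Cells with at least 200 genes were kept. Each cell was given the class, of 11, whose 8 markers scored highest (mean log of counts per 10000), if at least 3 were detected and no other class passed 60% of that score. Keratins were left out of the tumor score for stromal cells. The stromal classes were not set against each other, nor were the macrophage-like and dendritic-like classes. Stromal cells with at least 3 mesothelial or pericyte markers went to those classes and the rest to CAF-like. Subclasses took the highest-scoring list with at least 3 markers detected. Cells with mixed markers of classes set against each other stayed out, no clustering was run and no doublet caller was used. UMIs were summed per library and class. Between classes edgeR 4.0.16 (R 4.3.3; quasi-likelihood test, library as a block, Benjamini-Hochberg adjustment, threshold 0.05, sums of at least 10 cells) was used, after a test on simulated data. DESeq2 1.42.0 was an alternative. Between conditions, ratios were taken with Python 3.11.15 and scipy 1.17.1 and no test was run. The p-values measure the spread between 4 libraries of different conditions, and intervals cover counting error only and not differences between mice. Coordinates come from GENCODE annotation of mm10, and promoters from RefSeq.

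All 9 genes are named; of the 46 other complement genes, those past the test or 2-fold (1 of them is counted but not reported here by name); and for each of the 9, the 2 most alike genes outside the lists. The genes, lists and tests were chosen with earlier results of these data known. A stricter mesothelial gate (one that needs Upk3b, Lrrn4 or Gpm6a) and joining the stromal classes were alternatives chosen after seeing the data.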

Additional observations from a re-analysis of the deposited data

How the results depend on the processing

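CAF-like against macrophage-like cells passed for the same 8 of 9 genes, and in the same direction, under every alternative run: DESeq2, other normalization, no filter, gate and cell limits, no replicate block and each library left out. The mesothelial-like comparison was weaker. Its 433 genes became 1326 without a filter on low counts, 285 with 4 markers needed (3 libraries with at least 10 such cells left), 1 with no replicate block and 127 to 418 when a library was left out. Of the members, 1 passed, and 2 passed without the filter, 0 with no replicate block and 0 to 1 when a library was left out. C4b then passed without the filter at -0.74 (adjusted p = 0.0108). Cfb passed with 4 markers needed (1.19) and with the stricter mesothelial gate (1.09), and Serping1 lost its call with 4 markers needed (adjusted p = 0.0555), with the stricter gate (0.0583) and with no replicate block (0.556). C1qa turned from -0.49 to 0.047 with 4 markers needed, and C1qb, at -0.23, ranged from -0.51 to 0.036 when a library was left out (0.012 without D-CAN, 0.036 without WT/PBS) and turned to 0.27 with 4 markers needed and 0.20 with the stricter gate; none of these passed the test and the cause was not tested. Labels carry 1 sample per group, so the block is the library, which pairs the classes by construction. After GCV, the members past 2-fold in CAF-like cells went from 2 to 4 with WT/PBS as the control and to 1 for cells of 500 or more genes, and in macrophage-like cells from 0 to 1 with TMM factors. For D-CAN in macrophage-like cells the count went from 1 (Cfb) to 2 (C3 and C4b, Cfb no longer) with Pdgfrb-TK/PBS as the control, and to 0 with TMM factors or with a pseudocount of 10 CPM. In CAF-like cells of D-CAN, 4 or 5 members were past 2-fold under every alternative, counted in either direction. C3, C4b and Serping1 stayed past 2-fold higher throughout, at no less than 2.63, 2.18 and 1.27 on the log2 scale. With Pdgfrb-TK/PBS as the control C1qa, on 96 and 8 UMIs, took the place of Cfb. Where 5 were counted, C1qc was the added member, past 2-fold lower, at -1.24 at its lowest. Depth limits the genes of low level: C3ar1 and C5ar1 in CAF-like cells, and Serping1 in macrophage-like cells, had under 100 UMIs in each pair of libraries.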
